A study of Mus musculus with 21 samples.

Results

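The cyclin-dependent kinase (CDK) inhibitor genes were followed through 7 sorted blood cell fractions of C57BL/6 mouse bone marrow. The 7 genes, of 18213 genes named on the array, were Cdkn1a, Cdkn1b, Cdkn1c, Cdkn2a, Cdkn2b, Cdkn2c and Cdkn2d, taken through the RefSeq accessions of 8 probes, with the brightest probe used where a gene had several. Each fraction was represented by 3 arrays of 1 colour (Cy3). KLS cells were lineage-negative, Kit+ and Sca1+. On the erythroid side the labels give PreMegE as CD150+ CD105- and negative for FCGrI/II (Fc gamma receptors, also spelled FGCrI/II there), CFUe as CD150- CD105- and negative for those receptors, and Ter119 as CD71+ Ter119+. On the myeloid side they give PreGM as CD150- CD105- without those receptors, GMP as CD150- with them, and Mac1Gr1 as Mac1+ Gr1+. The labels list these 4 intermediate fractions as Kit+ Sca1+ too, and give CFUe and PreGM the same surface phenotype. No animal number, age or treatment was given in the sources used here, and nothing said that the 3 arrays of a fraction came from separate animals, so that p-values measure the spread between these samples, which may be technical.

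CDK inhibitors hold back the kinases that drive cells through the division cycle. The INK4 proteins, encoded by Cdkn2a (p16Ink4a, and in another frame p19Arf), Cdkn2b (p15), Cdkn2c (p18) and Cdkn2d (p19Ink4d), bind CDK4 and CDK6 and keep D-type cyclins from activating them, whereas the CIP/KIP proteins, encoded by Cdkn1a (p21), Cdkn1b (p27) and Cdkn1c (p57), bind whole cyclin-CDK complexes. In blood formation these genes are known from the quiescence of stem cells and from the last divisions before red cells and granulocytes are released. Protein turnover controls several of them, which transcript arrays do not see.

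Levels are given on the log2 scale relative to the upper quartile (75th percentile) of each array's signals, so a level of 0 equals that quartile and a difference of 1 is 2-fold. Between 56.5% and 77.4% of the probes were well above background on an array. The summed linear level of 9 erythroid genes was highest in Ter119 (5004 to 6716) and next in CFUe (104 to 116). It was 6.08 to 7.95 in PreGM, the fraction with the same labelled phenotype as CFUe, and 3.636 to 4.211 in GMP. The other fractions lay between: 37.84 to 48.36 in PreMegE, 27.94 to 34.83 in Mac1Gr1 and 21.62 to 30.8 in KLS. The sum of 7 stem cell genes was highest in KLS (156 to 165). PreGM lay close below (134.3 to 146.2), so this sum set KLS little apart from PreGM. It was lower in the other fractions. Transcripts of other lineages were measured too. The sum of 12 granulocytic genes was 4723 to 5939 in Ter119, close to the 5455 to 6106 of Mac1Gr1 and far from the 5.39 to 41.4 of CFUe, and all 12 were well above background on the 3 Ter119 arrays; 7 B cell genes summed to 112 to 160 in Ter119 against 0.543 to 2.50 in CFUe. In KLS, 10 macrophage genes summed to 27.1 to 75.5, against 0.765 to 1.53 in PreMegE. Xist, the transcript of the inactive X chromosome, stood between 3.90 and 5.61 on 10 arrays (all of GMP and Mac1Gr1, replicates 1 and 2 of CFUe and of PreGM) and between -7.47 and -4.47 on the other 11, with the Y-linked Ddx3y high on those 11. Animal sex and fraction cannot be told apart between the KLS, PreMegE and Ter119 arrays and the GMP and Mac1Gr1 arrays. In such sorted populations a lower level cannot be split into fewer cells with the transcript and less transcript per cell.

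Of the 7 genes, 6 were tested, since their probes were detected above background by the scanner software on every array of some fraction. Cdkn2a was not well above background on any of the 21 arrays, and no level or fold is given for it. A gene was called changed at an adjusted p under 0.05 (limma, Benjamini-Hochberg over the 29533 probes tested) and a change of at least 2-fold. Along the erythroid side, 2 of 6 were called between PreMegE and KLS (Cdkn2d higher, Cdkn1c lower), where 12.4% of all probes tested were called. At the next step, CFUe against PreMegE, 3 of 6 were called (Cdkn1a, Cdkn1b and Cdkn2d, all lower) and 24.7% of all probes. On the spike-in scale Cdkn1c was called lower there as well (-1.06), beside 838 probes higher and 7210 lower. Between Ter119 and CFUe 4 of 6 were called, all higher (Cdkn1a, Cdkn1b, Cdkn2c and Cdkn2d), beside 57.2% of all probes, so that this share of members was near the background. On the spike-in scale this split was 2 higher (Cdkn1b and Cdkn2d) and 1 lower (Cdkn1c), beside 4050 probes higher and 16575 lower.

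On the myeloid side, only Cdkn1c was called between PreGM and KLS, lower, beside 8.64% of all probes, and only Cdkn1a between GMP and PreGM, lower, beside 10.4%. Between Mac1Gr1 and GMP, 3 genes were higher (Cdkn1b, Cdkn2b and Cdkn2d) and Cdkn1a was lower, while 56.7% of all probes were called. Cdkn2b passed the filter on dim probes only through Mac1Gr1 and was well above background on 1 of 3 GMP arrays, so its call is no support. On the spike-in scale the split of this comparison was 1 higher (Cdkn2d) and 3 lower (Cdkn1a, Cdkn1c and Cdkn2c). Over the 29533 probes tested it was 1895 higher and 20673 lower. Across the lineages, 0 of 6 genes were called between PreMegE and PreGM, where 12% of all probes were. That limma comparison gave 4 of 6 genes with an unadjusted p under 0.05 and 2 with an adjusted p under 0.05, both below 2-fold (Cdkn1c and Cdkn2d), and 1 gene was called with a block for sex-chromosome transcripts (Cdkn2d) or without PreGM replicate 3 (Cdkn1a). CFUe differed from GMP in 2 of 6, Cdkn1a and Cdkn2d, both lower, beside 26.3% of all probes, and Ter119 from Mac1Gr1 in 2 of 6, Cdkn1a and Cdkn2c, both higher, beside 41.9%. When the change of the erythroid side was set against that of the myeloid side at the same step, 2 of 6 differed by at least 2-fold at the second step (Cdkn1a and Cdkn2d, 20.2% of all probes) and 2 of 6 at the third step (Cdkn1a and Cdkn2c, 39.9%). The median change of the 6 genes was -0.84 in CFUe against PreMegE, where that of all probes was 0.12. It was 1.84 in Ter119 against CFUe and 1.32 in Mac1Gr1 against GMP, where those of all probes were 0.05 and 0.17. The value of 1.32 counts Cdkn2b (2.27), whose call is no support, so no common rise in Mac1Gr1 is read from it. These medians are relative to the upper quartile of each array. On the spike-in scale the all-probe medians of the same comparisons were -0.39, -1.33 and -1.86.

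**Figure D1:**
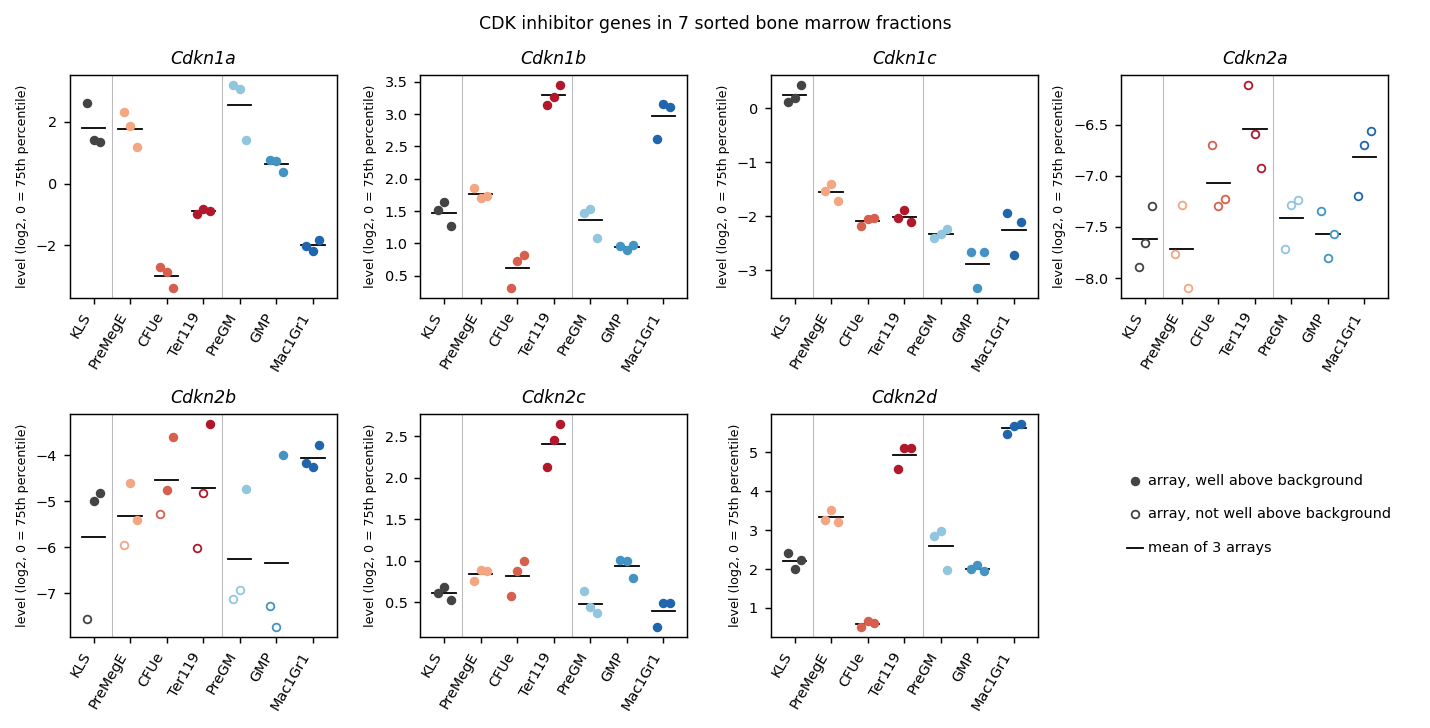
Level of each CDK inhibitor gene on every array, in log2 relative to the 75th percentile of the array, with 1 panel per gene and its own vertical scale. Each point is 1 array (open where the probe was not well above background), black lines are means of 3 arrays and grey lines part KLS from the erythroid and the myeloid fractions; Cdkn1a was lowest in CFUe, Cdkn1b and Cdkn2d were highest in Ter119 and Mac1Gr1, Cdkn2c was highest in Ter119, Cdkn1c was highest in KLS, and every Cdkn2a point is open.

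Cdkn1a, the CIP/KIP gene best known as a target of p53, had the widest range of the well measured members, falling sharply at the PreMegE to CFUe step. Its levels were 2.61, 1.42 and 1.34 in KLS, 2.30, 1.85 and 1.17 in PreMegE, -2.70, -2.86 and -3.36 in CFUe, and -0.98, -0.81 and -0.88 in Ter119. On the myeloid side they were 3.20, 3.04 and 1.41 in PreGM, 0.75, 0.73 and 0.37 in GMP, and -2.01, -2.17 and -1.81 in Mac1Gr1. All CFUe arrays lay below all arrays of the other 6 fractions, the Ter119 arrays lay between CFUe and the progenitors, and on the myeloid side the values of the 3 fractions did not overlap. In CFUe Cdkn1a was 26.9-fold lower than in PreMegE (log2 change -4.75, SE 0.41, adjusted p = 6.6e-08), and the 1 slide that held both fractions gave -5.16. In Ter119 it was 4.24-fold above CFUe (2.08, SE 0.41, adjusted p = 0.0002; 1.81 on the shared slide). In GMP it was 3.81-fold below PreGM (-1.93, SE 0.41, adjusted p = 0.0021; -2.45 on the shared slide), a call lost on the spike-in scale (-0.92, adjusted p = 0.10), and in Mac1Gr1 a further 6.12-fold below GMP (-2.61, SE 0.41, adjusted p = 2e-05).

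The course of Cdkn1a differed between the lineages. The second-step change was lower on the erythroid side by 2.82 (log2 difference -2.82, SE 0.58, adjusted p = 0.0012), and at the third step, where Cdkn1a rose on the erythroid and fell on the myeloid side, the difference was 4.70 (SE 0.58, adjusted p = 3.5e-06). Ter119 stood above both CFUe and Mac1Gr1. The excess over Mac1Gr1 was 2.15-fold (1.10, SE 0.41, adjusted p = 0.026) and was no longer called under quantile scaling (0.99), spike-in scaling (0.38), the normexp correction (0.81) and the series table (0.91), nor without Ter119 replicate 2 or 3 or Mac1Gr1 replicate 1 or 2 (1.02 to 1.10, adjusted p 0.055 to 0.073). In order of mean level, PreGM (2.55), KLS (1.79) and PreMegE (1.78) did not differ from their neighbours beyond the spread, while each of the steps down to GMP (0.62), Ter119 (-0.89), Mac1Gr1 (-1.99) and CFUe (-2.97) had an adjusted p under 0.05.

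The arrays of PreGM disagreed over Cdkn1a more than those of any other fraction (SD 0.99, against 0.09 to 0.71). The probe was spotted 10 times on each array, with a median SD of 0.05 between those spots, so spot noise was smaller than the spread between arrays. PreGM replicate 3, at 1.41, was also the 1 PreGM array with low Xist and high Ddx3y. Without it, Cdkn1a was called higher in PreGM than in KLS (1.33, adjusted p = 0.011) and lower in PreMegE than in PreGM (-1.34, adjusted p = 0.0080). In CFUe, the array of the same kind, replicate 3, was also the lowest, at -3.36, by 0.58 below the mean of the others. Replicate 3 was the lowest as well in KLS (1.34), PreMegE (1.17) and GMP (0.37), whose arrays did not differ in Xist state. It was not the lowest in Ter119 (-0.88) and Mac1Gr1 (-1.81). With the sex-chromosome block the PreGM to KLS difference was -0.0040 (adjusted p = 0.9965). The part of animal sex in these values was not tested.

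**Figure D2:**
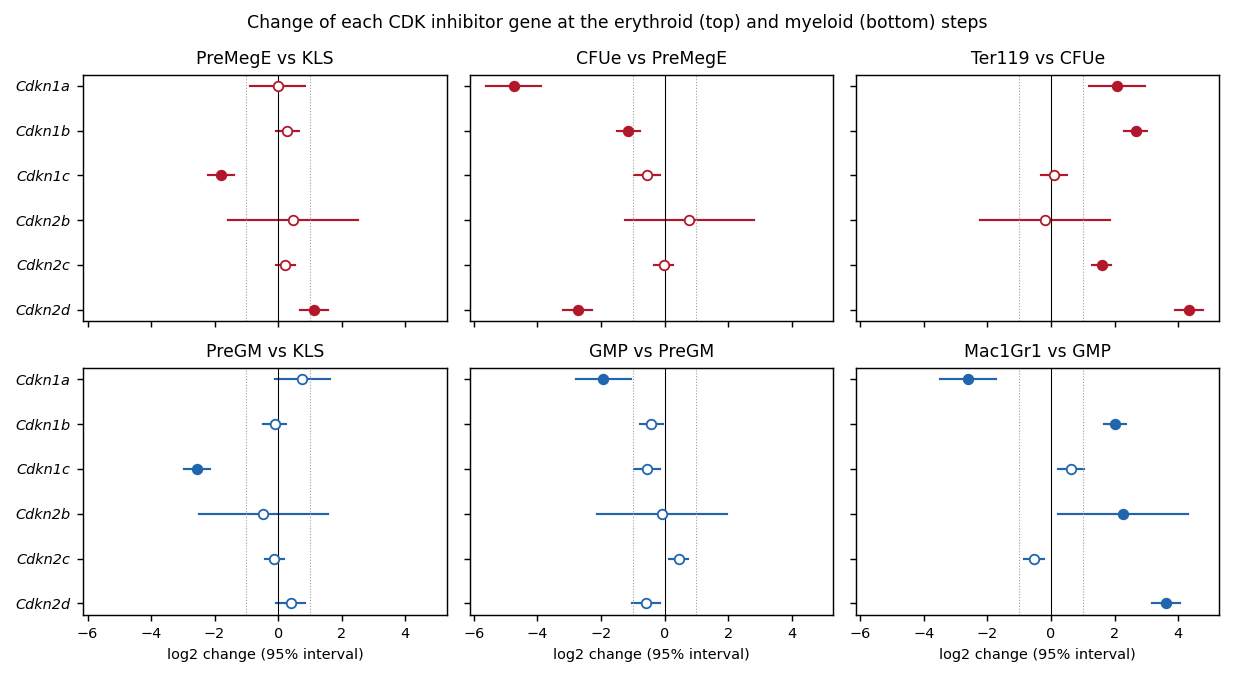
Log2 change of the 6 tested genes at the 3 erythroid steps (top, red) and the 3 myeloid steps (bottom, blue), with 95% intervals from the limma fit of 21 arrays. Filled points passed the adjusted p and the 2-fold limit (dotted lines at -1 and 1); Cdkn1a moved up at the last erythroid step (2.08) and down at the last myeloid step (-2.61), while Cdkn2d moved up at both (4.33 and 3.62).

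Cdkn1b, whose protein p27 restrains cyclin E-CDK2 and accumulates in resting cells, rose at the last step of both lineages. Its levels were 1.52, 1.64 and 1.27 in KLS, 1.86, 1.70 and 1.73 in PreMegE, 0.32, 0.73 and 0.83 in CFUe, and 3.14, 3.27 and 3.45 in Ter119. They were 1.47, 1.54 and 1.08 in PreGM, 0.97, 0.89 and 0.98 in GMP, and 2.61, 3.16 and 3.11 in Mac1Gr1. Every Ter119 and Mac1Gr1 array lay above every array of the 5 immature fractions, and the CFUe arrays were the lowest. Ter119 was 6.33-fold above CFUe (2.66, SE 0.17, adjusted p = 2.2e-10; 3.13 on the shared slide) and Mac1Gr1 was 4.04-fold above GMP (2.02, SE 0.17, adjusted p = 8.5e-09). Between PreMegE and CFUe it fell by 1.14 (SE 0.17, adjusted p = 2.6e-05), a change of 0.99 without CFUe replicate 1, which is below the 2-fold limit (log2 change -0.99).

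Ter119 and Mac1Gr1 did not differ beyond the spread in Cdkn1b (0.32, 95% interval -0.03 to 0.68, adjusted p = 0.10), and neither did the neighbours PreMegE, KLS, PreGM, GMP and CFUe in that order of level. A second Cdkn1b probe, spotted 10 times per array, gave -1.45 in CFUe against PreMegE, 2.90 in Ter119 against CFUe and 2.64 in Mac1Gr1 against GMP, so that both probes passed at the same 3 steps. They disagreed on the lineages: with the brightest probe the second-step change was lower on the erythroid side (-0.72, adjusted p = 0.027) and the third-step change higher (0.65, adjusted p = 0.030), whereas the other probe gave -0.58 (adjusted p = 0.099) and 0.26 (adjusted p = 0.42). With the brightest probe the third-step difference passed 2-fold when slides were blocked (1.198, adjusted p = 0.018) and with quantile (1.04), series table (1.02) and spike-in values (1.30), and the second-step difference did so on the spike-in scale (-2.25).

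Cdkn1c, the imprinted gene of p57, which is known for holding haematopoietic stem cells in quiescence, was highest in KLS. Its levels were 0.11, 0.19 and 0.43 in KLS, -1.54, -1.40 and -1.72 in PreMegE, -2.18, -2.06 and -2.04 in CFUe, and -2.03, -1.89 and -2.10 in Ter119. On the myeloid side they were -2.40, -2.33 and -2.24 in PreGM, -2.67, -3.32 and -2.67 in GMP, and -1.94, -2.72 and -2.11 in Mac1Gr1. The 3 KLS arrays stood clear above the other 18. The level fell 3.47-fold to PreMegE (-1.80, SE 0.19, adjusted p = 1.6e-06) and 5.92-fold to PreGM (-2.57, SE 0.19, adjusted p = 8.8e-08), and PreGM lay below PreMegE by 0.77 (adjusted p = 0.00575), less than 2-fold. Later changes were small on the 75th percentile scale: no later step of either side was called, the largest being 0.63 in Mac1Gr1 against GMP, where the arrays overlapped. On the spike-in scale Cdkn1c was called lower in CFUe than in PreMegE (-1.06, adjusted p = 0.0085). It was also called lower there in Ter119 than in CFUe (-1.30) and in Mac1Gr1 than in GMP (-1.40). In order of mean level Ter119, CFUe, Mac1Gr1 and PreGM did not differ from their neighbours beyond the spread. The KLS arrays also carried macrophage transcripts, summed to 27.1 to 75.5 against 0.581 to 22.2 in the other fractions. The part of such cells in the KLS level was not tested.

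Cdkn2d, the INK4 gene of p19Ink4d, was lowest in CFUe and rose at the last step of both lineages. Its levels were 2.41, 1.99 and 2.22 in KLS, 3.27, 3.52 and 3.21 in PreMegE, 0.51, 0.65 and 0.62 in CFUe, and 4.58, 5.10 and 5.10 in Ter119. They were 2.85, 2.97 and 1.98 in PreGM, 1.99, 2.09 and 1.94 in GMP, and 5.48, 5.67 and 5.73 in Mac1Gr1. CFUe held the 3 lowest arrays and Mac1Gr1 the 3 highest, with Ter119 next below and PreMegE above the other progenitors. It rose 2.18-fold from KLS to PreMegE (1.12, SE 0.21, adjusted p = 0.0006; not called on the spike-in scale, 0.66, adjusted p = 0.22), fell 6.68-fold to CFUe (-2.74, SE 0.21, adjusted p = 1.6e-08) and rose 20.2-fold to Ter119 (4.33, SE 0.21, adjusted p = 6.6e-12; 4.59 on the shared slide). On the myeloid side GMP lay 0.59 below PreGM, less than 2-fold, and Mac1Gr1 was 12.3-fold above GMP (3.62, SE 0.21, adjusted p = 6.5e-11).

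The fall of Cdkn2d at the second step was larger on the erythroid side by 2.15 (log2 difference -2.15, SE 0.30, adjusted p = 2.9e-05). At the third step the difference between the lineages was 0.71 (adjusted p = 0.052), and it passed the call under quantile scaling (1.06), the series table (1.09), spike-in scaling (1.37) and the sex-chromosome block (1.01). In order of mean level, Mac1Gr1 (5.63), Ter119 (4.93) and PreMegE (3.33) each differed from the next at an adjusted p under 0.05, whereas PreGM (2.60), KLS (2.21) and GMP (2.01) did not differ from each other as neighbours, and CFUe (0.59) lay below them all. GMP and PreGM, which are not neighbours in that order, did differ (log2 change -0.59, limma adjusted p = 0.049). PreGM replicate 3 was again lower than the other arrays of its fraction, by 0.93. On the Ter119 arrays, where Cdkn1b and Cdkn2d were near their Mac1Gr1 levels, the granulocytic sum of 4723 to 5939 was near that of Mac1Gr1 as well. The part of those transcripts in the Ter119 levels was not tested.

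Among the 6 tested members, Cdkn1b and Cdkn2d were most alike over the 21 arrays, with a Pearson correlation of 0.95 across arrays that share fractions. Cdkn1b with Cdkn2c (0.50) followed. Cdkn2a, not well above background on any array, was left out of this order. Cdkn1a correlated with Cdkn1b at -0.17 and with Cdkn2d at -0.08. Promoter windows of 250 bases before the start were found in the RefSeq table of GRCm38.p6 for 6 of the 7 genes, 9 windows in all; Cdkn1c had no entry. The windows of the alike members Cdkn1b (chr6:134920151-134920400, plus strand) and Cdkn2d (chr9:21291210-21291459, minus strand) are shown because their levels moved together, with the second of the Cdkn1a windows (chr17:29093519-29093768, plus strand), which belongs to the member that took another course. Each runs 5′ to 3′ on the strand of the gene and ends at the base before the start, and capitals mark a GC box (GGGCGG) or a CCAAT box (CCAAT) on either strand.
Cdkn1b: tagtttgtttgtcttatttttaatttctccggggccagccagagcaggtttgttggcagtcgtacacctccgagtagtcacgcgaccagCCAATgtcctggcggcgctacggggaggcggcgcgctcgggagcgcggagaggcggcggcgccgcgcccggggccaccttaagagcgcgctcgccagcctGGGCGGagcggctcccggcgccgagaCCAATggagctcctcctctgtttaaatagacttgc
Cdkn2d: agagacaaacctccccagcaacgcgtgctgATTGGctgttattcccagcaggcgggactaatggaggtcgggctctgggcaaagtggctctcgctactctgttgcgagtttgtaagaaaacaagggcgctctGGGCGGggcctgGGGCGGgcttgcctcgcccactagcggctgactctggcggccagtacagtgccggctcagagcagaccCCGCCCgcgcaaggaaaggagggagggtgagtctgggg
Cdkn1a: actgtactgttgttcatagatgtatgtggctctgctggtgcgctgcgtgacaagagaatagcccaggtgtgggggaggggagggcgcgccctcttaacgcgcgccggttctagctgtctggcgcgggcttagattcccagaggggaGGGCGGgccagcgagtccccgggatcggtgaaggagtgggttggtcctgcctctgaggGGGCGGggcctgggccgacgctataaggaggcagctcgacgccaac
The 3 printed windows share the GC box, which was found in 5 of the 9 member windows and in 32.7% of the 32851 windows of the table. The other Cdkn1a window, which is not printed, held no GC box. The CCAAT box was found in Cdkn1b and Cdkn2d, that is in 2 of the 9 windows, and in 33.9% of all windows. Windows with the E2F motif TTTCCCGC made up 0.89% of the table, and 1 of Cdkn2a held it. No member window held the GATA motifs AGATAA (9.99% of all windows) and TGATAA (7.94%), the ETS motif GGAAGTG (8.55%), the forkhead motif GTAAACA (3.17%) or the E box CACGTG (6.02%). The matches in the printed windows do not overlap each other.

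**Figure D3:**
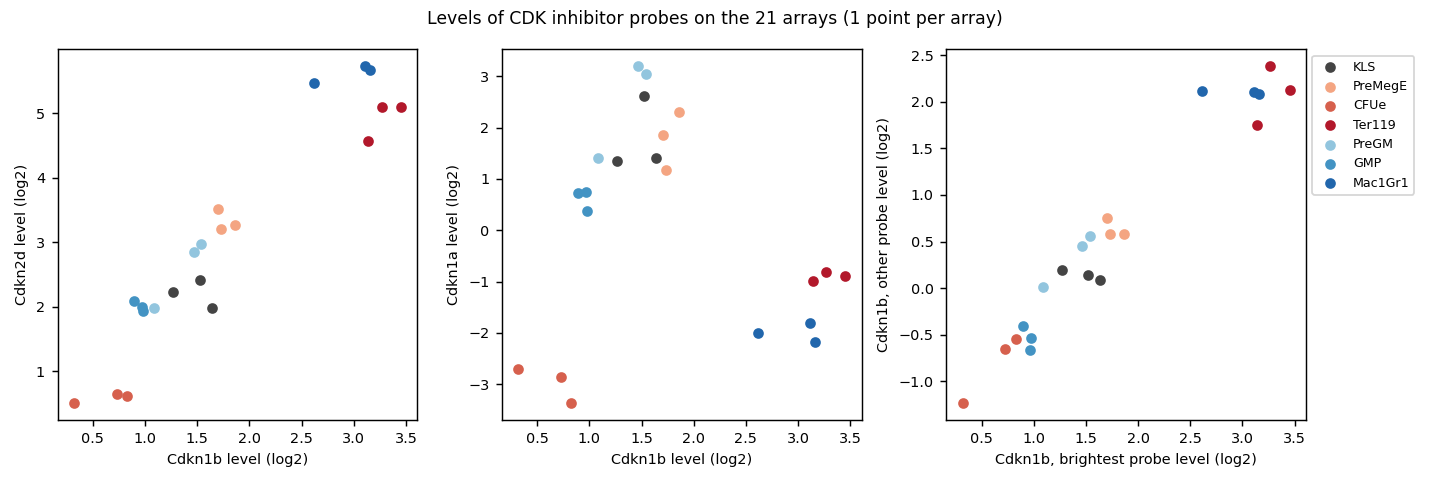
Levels (log2 relative to the 75th percentile) on the 21 arrays, 1 point per array coloured by fraction: Cdkn2d against Cdkn1b (left), Cdkn1a against Cdkn1b (middle) and both Cdkn1b probes against each other (right). Cdkn1b and Cdkn2d rise together with CFUe at the lower and Ter119 and Mac1Gr1 at the upper end (r = 0.95, n = 21 arrays), while Cdkn1a is low both in CFUe and in the mature fractions (r = -0.17).

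Cdkn2c, the INK4 gene of p18, was highest in Ter119. Its levels were 0.62, 0.68 and 0.53 in KLS, 0.76, 0.89 and 0.87 in PreMegE, 0.573, 0.872 and 1.0009 in CFUe, and 2.12, 2.45 and 2.65 in Ter119. They were 0.64, 0.44 and 0.37 in PreGM, 1.0046, 0.998 and 0.791 in GMP, and 0.20, 0.49 and 0.49 in Mac1Gr1. The Ter119 arrays stood clear of the other 18, whose values all lay within 0.20 to 1.0046. Ter119 was 3.02-fold above CFUe (1.59, SE 0.14, adjusted p = 1.9e-08; 2.08 on the shared slide) and 4.04-fold above Mac1Gr1 (2.01, SE 0.14, adjusted p = 2.8e-09). The third-step change differed between the lineages by 2.13 (SE 0.20, adjusted p = 1.6e-07), since Mac1Gr1 lay 0.54 below GMP (log2 change -0.54, adjusted p = 0.0027), less than 2-fold. The other 6 fractions did not differ from their neighbours in the order of level, from GMP (0.93) down to Mac1Gr1 (0.40). The B cell sum was 112 to 160 in Ter119 and 25.3 to 45.1 in Mac1Gr1, that of 5 T cell genes 7.10 to 8.26 and 6.45 to 8.18, and the granulocytic sums of both fractions overlapped. The part of such cells in the Ter119 level of Cdkn2c was not tested. On the spike-in scale Cdkn2c was called lower in Mac1Gr1 than in GMP (-2.57, adjusted p = 1.3e-07) and higher in GMP than in PreGM (1.46, adjusted p = 0.00076).

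Cdkn2b, the INK4 gene next to Cdkn2a on mouse chromosome 4, was measured near the detection limit. The probe reached the detection limit on 12 of 21 arrays, on all 3 only in Mac1Gr1 (-4.17, -4.25 and -3.78). In GMP it read -7.28, -7.73 and -4.01, of which only the last was well above background, so that both fractions overlapped. The difference of 2.27 (SE 0.96, adjusted p = 0.042) passed the test but lost the call with no filter on dim probes (adjusted p = 0.056), with a slide block (adjusted p = 0.21), with the compared fractions fitted alone (adjusted p = 0.078), under spike-in scaling (0.24) and without GMP replicate 1 or 2 or any of the Mac1Gr1 arrays (1.58 to 2.36). Over all arrays the level lay between -7.73 and -3.33, and no neighbours in the order of mean level differed beyond the spread, with SDs of 0.25 to 2.03 within fractions. The filter kept the probe because of Mac1Gr1 alone.

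The directions at the last steps depended on the scale to which the arrays were set. Against the synthetic spike-in RNAs, the median of all probes changed by -1.33 in Ter119 against CFUe and by -1.86 in Mac1Gr1 against GMP. On that scale Cdkn2d still rose, by 2.95 and 1.59, and Cdkn1b rose in Ter119 (1.28, adjusted p = 0.0009) but not in Mac1Gr1 (-0.02, adjusted p = 0.96). Cdkn2c in Ter119 (0.21) and Cdkn1a in Ter119 (0.70) were then not called. Cdkn1c fell at both steps (-1.30 and -1.40). Of the 4 rises in Ter119 and the 2 of Cdkn1b and Cdkn2d in Mac1Gr1, the call was kept on the spike-in scale by Cdkn1b in Ter119 and by Cdkn2d in both.

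**Figure D4:**
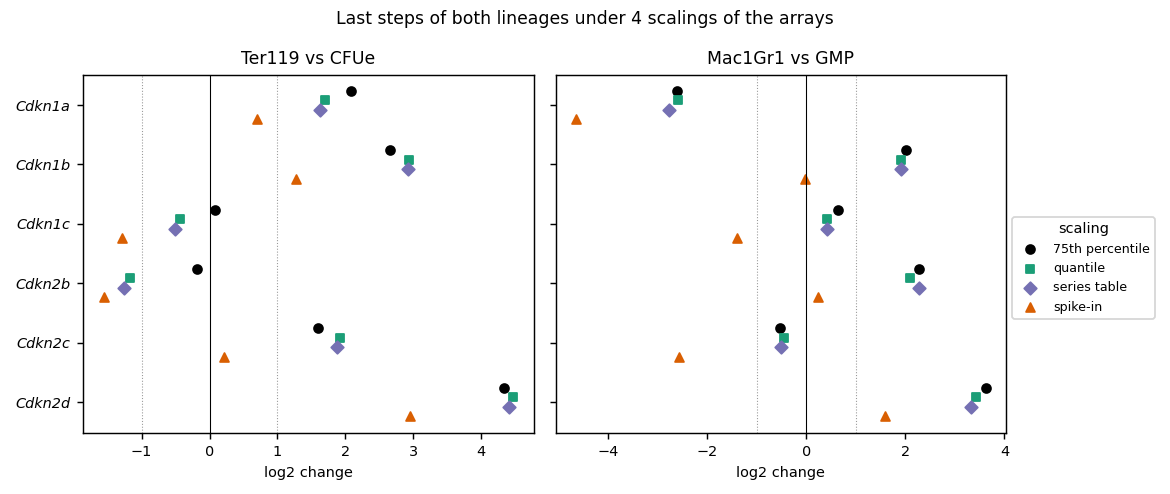
Log2 change of the 6 tested genes at the last erythroid step (left) and the last myeloid step (right) with the arrays scaled in 4 ways. Quantile scaling and the series table lie near the main 75th percentile scale apart from Cdkn2b and Cdkn1c in Ter119 against CFUe (Cdkn1c from 0.08 to -0.44 and -0.51), whereas the spike-in scale moves all genes down, so that Cdkn1b in Mac1Gr1 against GMP goes from 2.02 to -0.02; dotted lines mark 2-fold.

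The targets of the inhibitors were set beside them. Of 8 G1 cyclins and kinases, 7 had a probe and all 7 were tested. Cdk4 fell by 3.71 and Cdk6 by 2.89 in Ter119 against CFUe (log2 changes -3.71 and -2.89) and the same genes by 4.96 and 2.93 in Mac1Gr1 against GMP (-4.96 and -2.93), as did Ccnd2 (-1.62 and -2.76) and Ccne1 (-1.75 and -1.49). Ccnd3, the D-type cyclin of the last divisions of red cell precursors, rose at both steps, by 1.59 and 3.14, with the rise in Ter119 not called on the spike-in scale (0.21). Ccne2 stood 1.18 higher in Ter119, a direction that turned on the spike-in scale (-0.20), and fell in Mac1Gr1 (-2.15; -0.79 after normexp background correction, below 2-fold). The 7 genes had a median of -1.62 and -2.15 at those steps. Of all probes tested, 29.2% rose and 28% fell in Ter119, and 29.1% and 27.6% in Mac1Gr1. Cdkn1a, Cdkn1b and Cdkn2d fell in CFUe against PreMegE. The cyclin E genes Ccne1 (4.26, limma adjusted p = 7.9e-12) and Ccne2 (1.39) rose there, with Ccne2 not called on the spike-in scale (0.88). No member of this list fell by the call, where 9.96% of all probes tested were called higher and 14.7% lower. On the spike-in scale 2 of the 7 fell, beside 7210 of the 29533 probes tested. Quantile values also gave 2 falls, beside 4054 probes, as did those of the series table, beside 4092.

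Among 12 mitotic genes, 5 rose and 0 fell in CFUe against PreMegE (median 0.95), with Ccnb1 at 1.49. Of all probes tested, 9.96% were called higher and 14.7% lower there. The mitotic count depended on the scale, with 1 gene higher under quantile scaling and the series table and 0 on the spike-in scale. At the last erythroid step 6 of 12 fell and 0 rose (median -0.66), where 28% of all probes were called lower and 29.2% higher. Under quantile scaling 1 of the 12 fell (median -0.23). On the spike-in scale 11 fell, beside 16575 of the 29533 probes tested. The summed level of the 12 genes was 229 to 335 in Ter119 and 247 to 328 in CFUe, so those ranges overlapped. At the last myeloid step all 12 fell (median -1.82), as they did under each of the 4 other scalings or corrections, to a sum of 64.3 to 71.1 in Mac1Gr1 from 187 to 203 in GMP. Of all probes tested, 27.6% were called lower at that step. Mki67, the proliferation marker, fell by 1.19 on the log2 scale in Mac1Gr1 against GMP.

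Of 11 pocket protein and E2F genes, which act downstream of the CDKs, 3 rose and 5 fell in Ter119 against CFUe and 1 rose and 5 fell in Mac1Gr1 against GMP. Among all probes tested, 29.2% rose and 28% fell in the first of these comparisons, and 29.1% and 27.6% in the second. E2f2 rose at both, by 4.60 and 4.72, and E2f1 and E2f6 fell at both, with E2f1 in Ter119 below 2-fold after normexp background correction (-0.94). Rb1 stood 1.09 higher in Ter119, which turned on the spike-in scale (-0.29), and 0.98 higher in Mac1Gr1, just under 2-fold. On the spike-in scale 8 of the 11 genes fell in Ter119 and 10 in Mac1Gr1, beside 16575 and 20673 of the 29533 probes tested. In PreGM against KLS and GMP against PreGM none of the 11 was called, beside 8.64% and 10.4% of all probes.

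Of 15 p53 targets other than Cdkn1a, 7 fell and 1 rose in CFUe against PreMegE, 8 rose and 6 fell in Ter119 against CFUe, 6 fell and 2 rose in GMP against PreGM, and 6 rose and 2 fell in Mac1Gr1 against GMP. Among all probes tested, 14.7% fell and 9.96% rose at the first of these steps, and 29.2% rose and 28% fell at the second. At the third 6.36% fell and 4.01% rose, and at the last 29.1% rose and 27.6% fell. The rise in CFUe against PreMegE (Bax, 1.02) lost its call under quantile, series table, spike-in and normexp values (0.51 to 0.95). Fas (-1.02) lost it there under all of these but spike-in scaling (-0.80 to -0.24), and Perp (-1.65) under normexp (-0.92). The 3 CFUe arrays did not detect Plk2 well above background, so that only bounds can be given there: it was at least 5.92-fold lower in CFUe than in PreMegE and at least 10.0-fold higher in Ter119 than in CFUe, the bound being taken against the lowest signal that counted as well above background on each of those arrays, or against the probe's own signal where that was higher. In GMP Plk2 changed by -1.77 and in Mac1Gr1 by 2.31, and neither was called on the spike-in scale (-0.76 and 0.28). Btg2, an antiproliferative gene, changed by -2.78, 2.84, -1.40 and 4.04 at these 4 steps, with the fall in GMP not called on the spike-in scale (-0.39). Mdm2, whose product degrades p53, changed by less than 2-fold at all 4 of them, and Bax fell at both last steps (-2.53 and -2.26). On the spike-in scale the counts at the last steps became 5 higher and 7 lower in Ter119 and 3 higher and 9 lower in Mac1Gr1, and in GMP against PreGM 7 higher and 1 lower. Over the 29533 probes tested, these splits were 4050 higher and 16575 lower, 1895 and 20673, and 14014 and 505.

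Of 18 regulators of CDK inhibitor genes or proteins, 17 had a probe and were tested. The forkhead factors Foxo3 and Foxo1, known activators of Cdkn1b, rose in Ter119 (2.37 and 2.77) and in Mac1Gr1 (3.60 and 1.54) and fell in GMP against PreGM (-1.83 and -1.18). On the spike-in scale both falls in GMP (-0.81 and -0.16) and the rise of Foxo3 in Ter119 (0.99) were not called, and Foxo1 in Mac1Gr1 turned (-0.49). Myc, which represses several CDK inhibitor genes, fell in Ter119 (-3.70) and in Mac1Gr1 (-4.93). The Polycomb genes Bmi1 (-2.28 and -2.85) and Ezh2 (-1.08 and -2.81), known for silencing the Cdkn2a locus, fell at the same steps, with Ezh2 in Ter119 below 2-fold under quantile scaling (-0.68), while Cbx7 stood higher (1.87 and 3.02), which was not called on the spike-in scale (0.49 and 0.99). Cks1b, which aids the degradation of p27, fell by 1.59 and 3.28 (log2 changes -1.59 and -3.28). Trp53 itself was called only in Mac1Gr1 against GMP (1.27) among these 4 steps, and turned there on the spike-in scale (-0.76). In all, 6 regulators rose and 7 fell in Ter119 and 7 rose and 6 fell in Mac1Gr1, against 2 and 9, and 1 and 10, on the spike-in scale. Among all probes tested, 29.2% rose and 28% fell in Ter119, and 29.1% and 27.6% in Mac1Gr1. On the spike-in scale 4050 of 29533 probes rose and 16575 fell in Ter119, and 1895 and 20673 in Mac1Gr1.

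Over the 14311 other genes tested, those whose brightest probe was most like a member over the 21 arrays, by Pearson correlation, are given as a description; the arrays share fractions. For Cdkn1a they were Gpsm1 (0.96), Mef2c (0.95) and Bcl2 (0.95), and for Cdkn1b Tspyl1 (0.96), Tbx6 (0.96) and Fam214b (0.96). Cdkn1c was followed by Wfdc2 (0.95), Nbea (0.92) and Cdcp1 (0.91). Cdkn2c had Bpgm, which makes the 2,3-bisphosphoglycerate of red cells, at 0.95, with Snx15 (0.95) and Atg4a (0.95). For Cdkn2d they were Tesc (0.97), Btg1 (0.97), an antiproliferative gene, and Kif21b (0.95). A correlation above 0.9 was reached by 124 genes for Cdkn2d, 105 for Cdkn1b, 74 for Cdkn2c, 33 for Cdkn1a, 7 for Cdkn1c and 0 for Cdkn2b, whose best was 0.76.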

How the data were processed

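The data were 21 arrays, 3 for each of 7 fractions, grouped and numbered by the sample labels. The authors deposited scanner files made with Agilent Feature Extraction 10.7.1.1, which give each spot's intensity (linear, background removed by the scanner software) and flags for outliers, saturation and signal well above background. They also deposited a series table of log2 values normalized between arrays, for which the paper's methods name LIMMA, with the kind of scaling not given in the sources used here. No spot was saturated. Here log2 of the intensity was taken minus the 75th percentile over the 43379 spots of an array that were not controls, outlier spots (80 to 283 per array) were left out, and spots of a probe were averaged, which left 41174 probes. Names came from RefSeq accessions through a table of GRCm38.p6, which named 26682 probes (64.8%). The array annotation is of mm9, so no probe coordinates are given. Where a gene had several probes the brightest was taken. The 29533 probes detected above background in every array of some fraction entered a two-sided limma test (limma 3.58.1, R 4.3.3), 1 mean per fraction, all arrays in 1 fit, with Benjamini-Hochberg adjustment within each comparison. The median residual SD was 0.26 (14 residual degrees of freedom), and precision is limited by how many arrays there were. In simulated data for CFUe against PreMegE, 180 of 200 probes changed by 2 on the log2 scale were called, with 3 false calls among 29533.

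Alternatives were quantile scaling, scaling to 7 of 10 spike-in probes, normexp with an offset of 50, no filter on dim probes, the series table, calls with no minimum fold, a block for the 9 slides, a replicate block, the second Cdkn1b probe, fits of only the fractions compared, and each array left out in turn. A block for sex-chromosome transcripts (Xist above or below the 75th percentile) was chosen after seeing the data, as was setting the gene lists against the other scalings. The scans were made on a single day, slide by slide. Members and gene lists were chosen with earlier results of these data known. The text names the 7 members, genes of the fixed lists and the genes most correlated with a member. Promoter sequences are RefSeq, GRCm38.p6. Figures used Python 3.11.15, pandas 2.3.3 and matplotlib 3.10.9.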

Additional observations from a re-analysis of the deposited data

Results flagged for a closer look

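Each of the following was noted because the change at a step differed between the lineages, with the difference itself tested (limma, adjusted p under 0.05). At the second step (CFUe against PreMegE minus GMP against PreGM), the log2 differences were -2.82 for Cdkn1a, -0.72 for Cdkn1b and -2.15 for Cdkn2d. At the third step (Ter119 against CFUe minus Mac1Gr1 against GMP), they were 4.70 for Cdkn1a, 0.65 for Cdkn1b and 2.13 for Cdkn2c. Those of Cdkn1b were below 2-fold, although the third-step one passed 2-fold when slides were blocked (1.198) and with quantile (1.04), series table (1.02) and spike-in values (1.30), and the second-step one on the spike-in scale (-2.25). They had adjusted p values of 0.099 and 0.42 with the other probe of the gene.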

How the results depend on the processing

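Of 23 calls on single members, 15 kept their direction and call under every alternative run; among them are the falls of Cdkn1a and Cdkn2d in CFUe, of Cdkn1c from KLS and the rises of Cdkn2d at both last steps. Spike-in scaling turned the direction of Cdkn1b in PreMegE vs KLS (-0.17), GMP vs PreGM (0.60), Mac1Gr1 vs GMP (-0.0175) and Ter119 vs Mac1Gr1 (-0.40). It turned Cdkn1c in Ter119 vs CFUe (-1.30), GMP vs PreGM (0.45), Mac1Gr1 vs GMP (-1.40), CFUe vs GMP (-0.59), Ter119 vs Mac1Gr1 (-0.48) and in the second-step (-1.51) and third-step (0.10) differences. It also turned Cdkn2b in GMP vs PreGM (0.94) and the second-step difference (-0.67), Cdkn2c in PreMegE vs KLS (-0.23) and Cdkn2d in PreGM vs KLS (-0.23) and GMP vs PreGM (0.43). By its construction it moves all probes of an array alike. Genes called became 1 in PreMegE vs KLS, 4 in CFUe vs GMP, 5 in the second-step and 4 in the third-step difference. Of the 29533 probes tested, 4502, 17626, 19141 and 11190 were called in those comparisons on the spike-in scale. The 1 gene called in GMP vs PreGM became Cdkn2c, higher, in place of Cdkn1a, lower, beside 14014 probes higher and 505 lower. Quantile scaling turned Cdkn1c in Ter119 vs CFUe (-0.44) and Ter119 vs Mac1Gr1 (-0.0635), and the series table did so too (-0.51 and -0.0877). With either, 1 gene was called in Ter119 vs Mac1Gr1 (beside 12274 and 12467 probes) and 5 in the third-step difference (beside 12362 and 12562 probes). Normexp turned Cdkn2b in Ter119 vs CFUe (0.69), PreGM vs KLS (0.0735) and Ter119 vs Mac1Gr1 (0.24). It left 1 call in Ter119 vs Mac1Gr1, beside 7171 probes. With no minimum fold, 4 genes were called in GMP vs PreGM and 2 in PreMegE vs PreGM, beside 7773 and 8123 of the 29533 probes. Counts also rose in Mac1Gr1 vs GMP, CFUe vs PreMegE, CFUe vs GMP, Ter119 vs Mac1Gr1 and the second-step and third-step differences, and are left out. For those no all-probe count without the fold limit is given here. The sex-chromosome block turned Cdkn1a in PreGM vs KLS (-0.0040), Cdkn2c in CFUe vs PreMegE (0.0144) and Cdkn2b in PreGM vs KLS (0.77), GMP vs PreGM (0.54) and PreMegE vs PreGM (-0.30). It gave 1 call in PreMegE vs PreGM (beside 3609 probes) and 4 in the third-step difference (beside 11632 probes). Apart from spike-in scaling, the cause of these moves was not tested.

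With each array left out in turn, genes called ranged from 1 to 2 in PreGM vs KLS and 0 to 1 in PreMegE vs PreGM. Both upper counts came without PreGM replicate 3, beside 2845 and 3908 probes. In Ter119 vs Mac1Gr1 the range was 1 to 2, with the lower count beside 11845 to 12288 probes. Cdkn1b lost its call in CFUe vs PreMegE without CFUe replicate 1. Cdkn2b gained a call in CFUe vs GMP and the third-step difference, and lost its call in Mac1Gr1 vs GMP, when single arrays were left out. Changes that turned in direction ranged from -0.28 to 0.40 for Cdkn1a in PreMegE vs KLS, -0.22 to 0.0279 for Cdkn1b in PreGM vs KLS, -0.20 to 0.13 for Cdkn1c in the second-step difference, -0.21 to 0.0049 for Cdkn2c in CFUe vs GMP and -0.12 to 0.10 for Cdkn2c in CFUe vs PreMegE. For Cdkn2b they ranged from -1.24 to 0.68 in GMP vs PreGM, -1.35 to 0.0191 in PreGM vs KLS, -0.42 to 0.95 in PreMegE vs KLS and -0.88 to 0.47 in Ter119 vs CFUe. The replicate block added calls of Cdkn2b in CFUe vs GMP (1.79, adjusted p = 0.031) and the third-step difference (-2.45, adjusted p = 0.035) and changed no other call of a member. Same-numbered arrays did not deviate together (median r 0.0024, from -0.43 to 0.37 over 63 pairs), so the numbers were not taken to pair the samples. Signal over background limited Cdkn2a and Cdkn2b.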
